A study of Mus musculus with 8 samples.

Results

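The genes described here encode the nuclear subunits of the mitochondrial respiratory chain and ATP synthase, together with a few factors that assemble them. They were chosen by name: symbols that start with Nduf, Uqcr, Cox4, Cox5, Cox6, Cox7, Cox8 or Atp5, together with Sdha, Sdhb, Sdhc, Sdhd and Cyc1. A RefSeq table for mouse lists 116 such symbols, 19 of them pseudogenes. Probes on the array matched 93 of them, and 91 genes gave a signal that could be tested, of 20165 features tested in all. These were 36 genes of complex I, 4 of complex II, 9 of complex III, 17 of complex IV (Ndufa4 and Ndufa4l2 counted there), 16 of ATP synthase (complex V), 8 complex I assembly factors of the Ndufaf series and the supercomplex factor Cox7a2l. The probes of Cox7b2 and Cox8c were not well above background on any array, and Atp5g1, Ndufb1, Ndufb4b and Ndufb4c had no matched probe. Whole liver RNA came from male C57BL/6 mice bought at 5 weeks of age and fed ad libitum, 1 array per mouse and 2 mice per group. The groups were a high-fat diet (HFD, 58% fat, 5.2 kcal per g) for 9 months, a normal diet (ND, 4.8% fat, 3.8 kcal per g) for 9 months, HFD for 3 months and ND for 3 months. The labels name no other allele or agent.

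The respiratory chain sits in the inner mitochondrial membrane. Complex I takes electrons from NADH and complex II takes them from succinate, complex III passes them to cytochrome c and complex IV gives them to oxygen. Proton pumping by complexes I, III and IV drives ATP synthase. Most subunits are encoded in the nucleus and are expressed in every tissue, but several complex IV subunits have paralogues typical of heart and skeletal muscle (Cox6a2, Cox7a1, Cox8b), testis (Cox6b2) or lung (Cox4i2), and the muscle forms are also found in brown fat. Hepatocytes, which burn fatty acids, are rich in mitochondria. The subunits encoded by mitochondrial DNA were not measured here.

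Levels are log2 processed signals relative to the 75th percentile of the same array, so that a level of 0 is the 75th percentile, and a level is compared only between arrays for 1 probe. Differences are log2 values ± SE from 1 limma fit of all 8 arrays across all features, and a gene counts as called where its p, adjusted by Benjamini and Hochberg, lay under 0.05. All HFD arrays lay on 1 slide and all ND arrays on the other, so diet and slide cannot be told apart. Row 2 of either slide held the mice of 9 months and row 1 those of 3 months, and these cannot be told apart from each other either. The 75th percentile intensity ran from 185 to 428 on HFD arrays and from 482 to 596.5 on ND arrays, the lowest being HFD 9 months replicate 2, and well above background were 40.6% to 54.1% of the spots per array. The 10 hepatocyte markers tested were well above background on at least 1 array each, with a summed linear level of 3088 to 5437 over the 8 arrays. Of the 91 genes 89 were well above background on every array, Cox8b on 5 and Cox6a2 on 4.

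Few respiratory chain genes passed the test in any comparison of diets. At 9 months 3 were called higher on HFD (Cox7a1, Cox8b and Ndufaf5) and 0 lower, against 8.28% of all features called (3.56% higher and 4.73% lower). Of these genes, Cox8b passed the filter on dim probes through the HFD groups alone, so its direction is in part set by that filter. With 1 array left out, the median difference of the members at 9 months ran from 0.15 to 0.21. At 3 months 0 were called higher and 2 lower (Atp5g3 and Atp5h), against 5.18% of all features (1.51% higher and 3.67% lower). Neither count of members is above the share of all features. At 9 months 58 of the 91 genes had a higher mean on HFD (63.7%, median difference 0.16), against 51.1% of all features (median 0.02) and 58.7% of features with a gene symbol (median 0.12), and by complex the medians were 0.12 for complex I, 0.34 for II, 0.00 for III, 0.28 for IV, -0.02 for V and 0.23 for the assembly factors. At 3 months 64 of 91 had a lower mean on HFD (70.3%, median -0.10), against 50.5% of all features (median -0.01) and 41.2% of features with a symbol (median 0.11), with medians of -0.06, 0.04, -0.30, -0.13, -0.17 and -0.02 in the same order. Bright features in general were lower there: 65.5% of all features with a mean level of 6 to 7 and 73.6% of those of 7 to 8. Of the members in these classes 14 of 23 and 24 of 31 were lower. The direction of the 3-month median depended on how the arrays were scaled: it was 0.11 after quantile normalization, 0.14 in the authors' deposited table and 0.07 after cyclic loess. The groups did not overlap for 41 genes higher and 7 lower on HFD at 9 months (28.5% and 26.1% of all features), and for 15 higher and 40 lower at 3 months (35.6% and 35.4%).

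**Figure D1:**
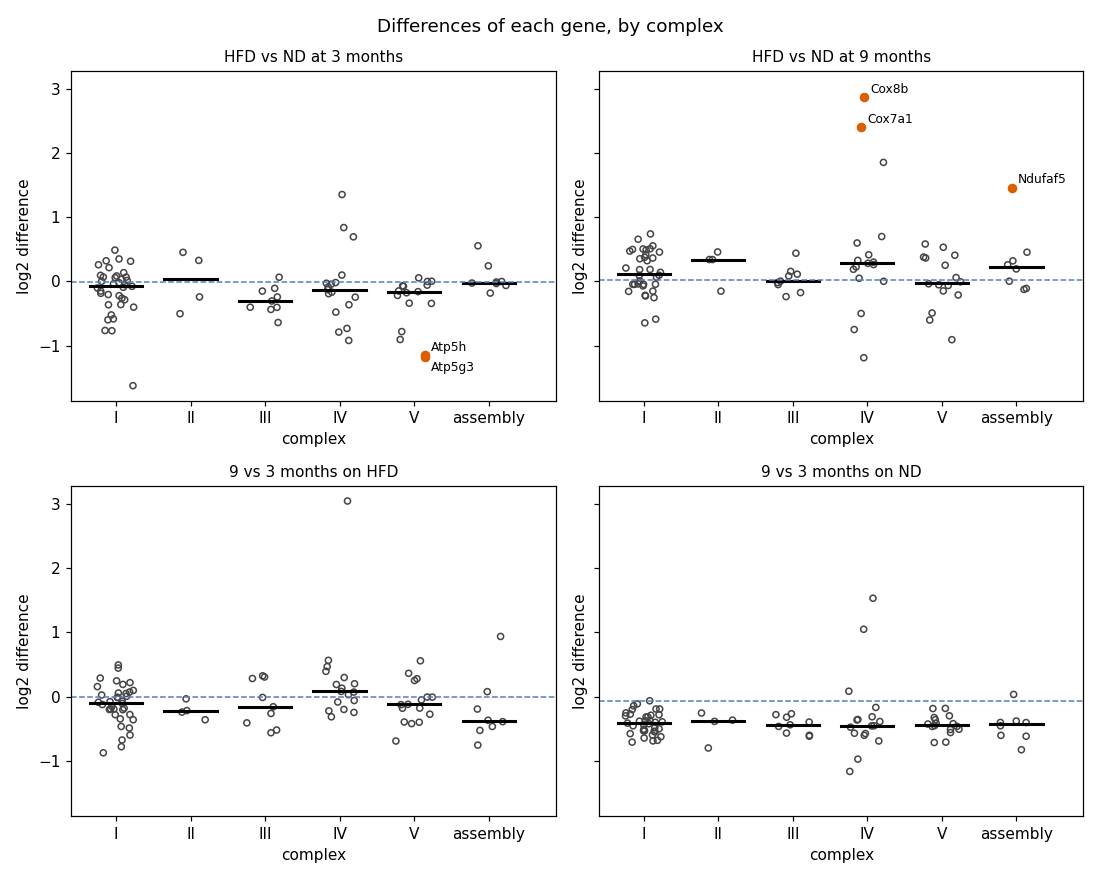
Log2 difference (vertical axis) of each gene except Cox7a2l, grouped by complex (horizontal axis), in 4 comparisons; open circles did not pass limma's test, filled named circles did, bars are medians of the complex and the dashed line is the median of all 20165 features. In the comparison of 9 with 3 months on ND the bars of all 6 classes lie between -0.38 and -0.45, below the dashed line at -0.07.

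Complex IV held the largest positive differences on HFD at 9 months. Cox7a1, the heart and muscle form of subunit 7a, had levels of 2.51 and 2.94 in HFD livers at 9 months, against -0.06 and 0.71 in ND livers. At 3 months it had 2.17 and 2.49 on HFD, against 1.46 and 1.52 on ND. The diets did not overlap at either time, and the ND mice of 9 months were the lowest of all. The difference was 2.40 ± 0.31 at 9 months (5.27-fold, limma adjusted p = 0.0128) and 0.84 ± 0.31 at 3 months (adjusted p = 0.154). The 9-month call held in 8 of 8 fits that left out 1 array.

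Cox8b, the muscle form of subunit 8, had levels of -0.62 and 0.30 on HFD at 9 months, against -3.85 and -2.20 on ND, and of -3.25 and -3.16 on HFD at 3 months, against -4.62 and -4.50 on ND. It was well above background on both HFD arrays at each time, on 1 ND array at 9 months and on 0 ND arrays at 3 months. It passed the filter on dim probes through the HFD groups alone, so its direction is in part set by that filter. It rose by 2.87 ± 0.55 at 9 months (limma adjusted p = 0.0331). That call held in 2 of 8 fits that left out 1 array, in which the difference ran from 2.04 to 3.69. It ended without any 1 array of 3 months, without HFD 9 months replicate 2 and without ND 9 months replicate 1. At 3 months it was at least 1.75-fold higher on HFD, with the ND level set to the dimmest signal that still counted as detected on those arrays, with an adjusted p of 0.188.

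Cox6a2, the muscle form of subunit 6a, was well above background on both HFD arrays of 9 months and on 0 ND arrays of that time. Its levels were -2.60 and -1.97 on HFD and -3.42 and -4.85 on ND, at least 3.34-fold higher on HFD, with a limma adjusted p of 0.0689. At 3 months they were -2.98 and -2.53 on HFD and -3.32 and -3.57 on ND (0.69 ± 0.49, adjusted p = 0.4). Cox8b and Cox6a2 passed the filter on dim probes through the groups in which they were high, so their direction is in part set by that filter. The forms found in all tissues had smaller differences, of which 0 were called: Cox7a2 had a difference of 0.60 ± 0.17 at 9 months (adjusted p = 0.0827) and -0.09 ± 0.17 at 3 months, Cox8a of 0.19 ± 0.23 and -0.36 ± 0.23, and Cox6a1 of 0.23 ± 0.20 and -0.17 ± 0.20. Within each array, the log2 ratio of Cox7a1 to Cox7a2 was higher on HFD by 1.80 at 9 months and 0.93 at 3 months.

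These 4 promoters, 250 bases before and 50 after the gene start in RefSeq's GRCm38.p6, set 2 of the muscle forms, Cox7a1 and Cox8b, beside their common paralogues; capitals mark matches to the motifs searched. Motifs were searched on both strands. Those of nuclear respiratory factor NRF1 and of YY1 are given by name. The motif of ETS factors such as GABPA was spelled CCGGAAG. For the oestrogen-related receptors, nuclear receptors that act on mitochondrial genes, the letters searched were AAGGTCA. The SP factors, which bind GC-rich promoters of many genes, were searched by GGGCGG. The TATA box, which places the start of transcription, was searched by TATAAA.
Cox7a1 promoter, chr7:30183921-30184220, plus strand: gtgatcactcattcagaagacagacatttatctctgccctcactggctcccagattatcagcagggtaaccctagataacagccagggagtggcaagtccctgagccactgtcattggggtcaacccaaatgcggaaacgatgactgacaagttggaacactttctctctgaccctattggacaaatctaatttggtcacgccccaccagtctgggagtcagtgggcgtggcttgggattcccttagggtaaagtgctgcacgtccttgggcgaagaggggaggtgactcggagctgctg
Cox7a2 promoter, chr9:79759804-79760103, minus strand: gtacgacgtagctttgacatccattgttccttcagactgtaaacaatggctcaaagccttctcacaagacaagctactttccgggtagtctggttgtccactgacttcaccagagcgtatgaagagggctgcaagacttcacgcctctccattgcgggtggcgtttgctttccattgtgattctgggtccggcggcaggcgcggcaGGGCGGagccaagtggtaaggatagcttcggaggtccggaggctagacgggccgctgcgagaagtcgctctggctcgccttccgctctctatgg
Cox8b promoter, chr7:140900397-140900696, minus strand: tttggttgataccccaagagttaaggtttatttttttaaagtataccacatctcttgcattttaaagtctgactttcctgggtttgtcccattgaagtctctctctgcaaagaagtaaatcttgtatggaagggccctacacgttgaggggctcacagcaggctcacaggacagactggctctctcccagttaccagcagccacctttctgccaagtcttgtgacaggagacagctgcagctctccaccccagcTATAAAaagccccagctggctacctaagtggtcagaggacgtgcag
Cox8a promoter, chr19:7217567-7217866, minus strand: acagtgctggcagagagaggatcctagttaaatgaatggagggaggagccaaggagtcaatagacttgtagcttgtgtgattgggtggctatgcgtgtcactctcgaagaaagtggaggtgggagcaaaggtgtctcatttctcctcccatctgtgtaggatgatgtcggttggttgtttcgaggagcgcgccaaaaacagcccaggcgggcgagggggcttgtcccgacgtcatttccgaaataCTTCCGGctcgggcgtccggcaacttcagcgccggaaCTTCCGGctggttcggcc
The Cox7a1 window held 0 matches and the Cox7a2 window 1, to GGGCGG. The Cox8b window held 1 match to TATAAA and the Cox8a window 2 to CCGGAAG. A match describes these letters and nothing more.

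Of the 17 complex IV genes 14 had a higher mean on HFD at 9 months (82.4%, against 51.1% of all features). At 3 months 13 had a lower mean on HFD (76.5%, against 50.5% of all features). The other named complex IV genes showed no common direction. Cox4i2, the lung form of subunit 4, had levels of -0.61 and -0.81 on HFD at 9 months, against 0.92 and 0.04 on ND, and of -0.76 and -0.04 on HFD at 3 months, against 0.34 and 0.45 on ND. All 4 HFD mice lay below all 4 ND mice, and over both durations it fell by 0.99 ± 0.25 (limma adjusted p = 0.0309, n = 4 per diet). That call held in 3 of 8 fits that left out 1 array. It ended without HFD 3 months replicate 1, either ND array of 3 months or either HFD array of 9 months. Cox5b, a common subunit, had levels of 6.97 and 6.67 on HFD at 9 months, against 7.28 and 7.37 on ND, and of 6.90 and 7.19 on HFD at 3 months, against 7.75 and 7.80 on ND. It fell by 0.62 ± 0.14 over both durations (adjusted p = 0.0231), a call that held in 4 of 8 such fits and ended under quantile normalization, cyclic loess and no filter on dim probes. The arrays that ended it were HFD 3 months replicate 1, both ND arrays of 3 months and ND 9 months replicate 2. Cox4i1, the common form of subunit 4, differed by 0.28 ± 0.22 at 9 months and -0.02 ± 0.22 at 3 months. Ndufa4l2, a hypoxia-inducible relative of Ndufa4, differed by 0.70 ± 0.30 (adjusted p = 0.19) and -0.19 ± 0.30, Ndufa4 by 0.26 ± 0.17 and -0.24 ± 0.17, and Cox6b2, the testis form of subunit 6b, by -0.75 ± 0.39 and 0.10 ± 0.39. Cox6b1, the common form of that subunit, differed by 0.33 ± 0.18 and -0.04 ± 0.18. Cox7c had the most negative difference of complex IV at 3 months (-0.92 ± 0.25, adjusted p = 0.0823) and 0.00 ± 0.25 at 9 months. Of its other probes, all well above background on 8 arrays, the brighter differed by 0.29 at 3 months and 0.52 at 9 months. The dimmer differed by -0.44 and -0.06, so the sign for Cox7c at 3 months depended on the probe.

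**Figure D2:**
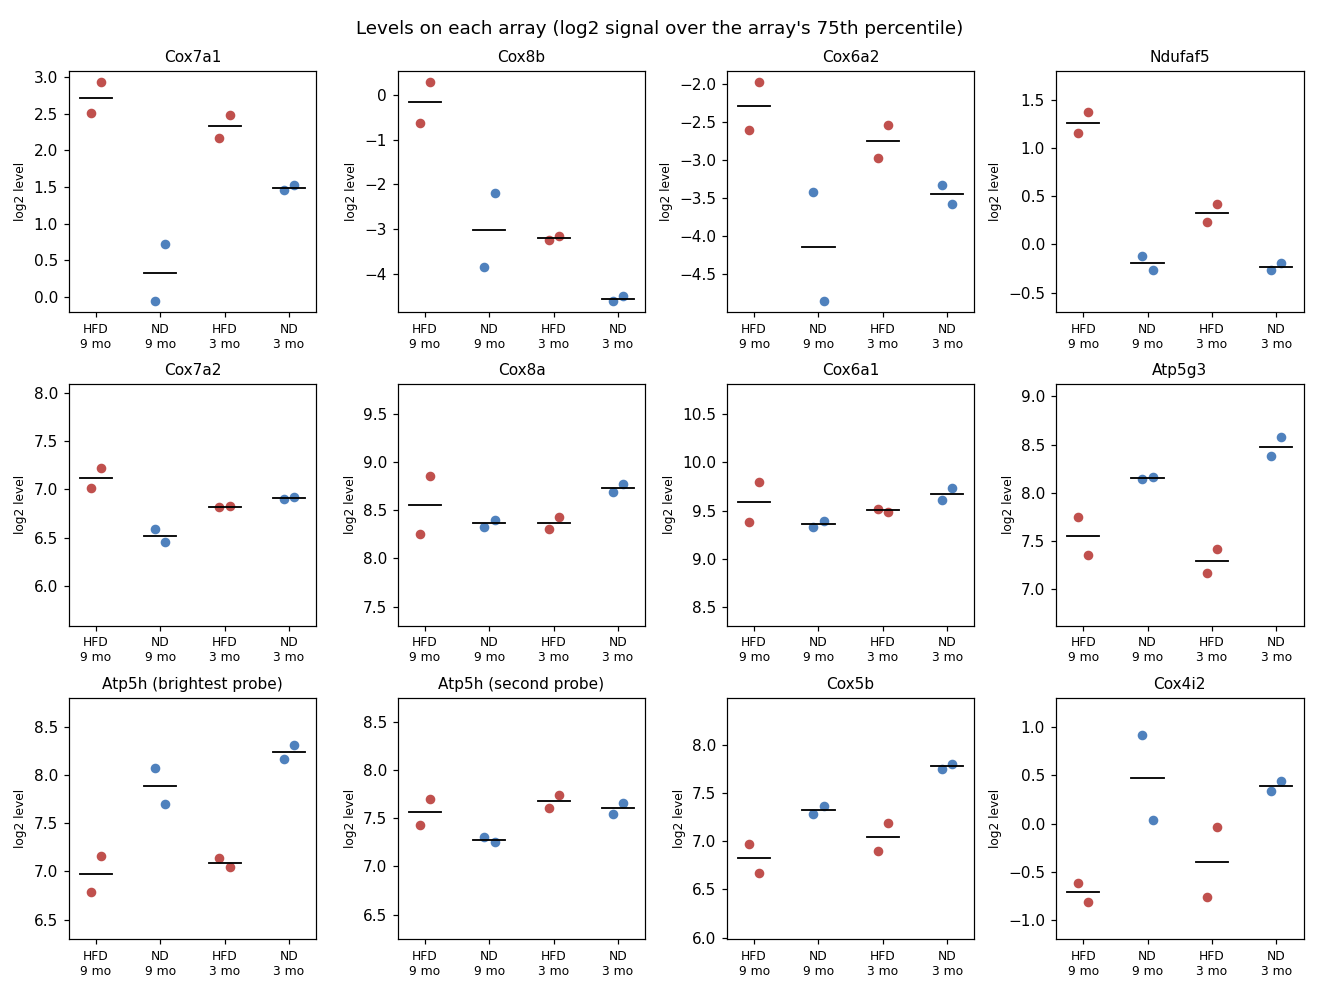
Level of single genes on each array (vertical axis, log2 signal over the array's 75th percentile; each panel has its own axis) in the 4 groups of 2 mice, with red points for HFD, blue points for ND and a bar at the mean. For Cox7a1, Cox8b and Ndufaf5 both HFD points of 9 months lie above both ND points, while the 2 probes of Atp5h part at 3 months, with differences of -1.15 and 0.07.

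Among the assembly factors Ndufaf5 was called. This gene encodes a methyltransferase-like protein needed to build complex I. Its levels were 1.16 and 1.37 on HFD at 9 months, against -0.12 and -0.27 on ND, and 0.23 and 0.42 on HFD at 3 months, against -0.27 and -0.19 on ND. The HFD mice of 9 months were the highest, with no overlap with any other group. Ndufaf5 rose by 1.46 ± 0.18 at 9 months (2.75-fold, limma adjusted p = 0.0117), a call that held in 7 of 8 fits that left out 1 array and ended without ND 9 months replicate 2. At 3 months it differed by 0.55 ± 0.18 (adjusted p = 0.125), and over both durations it rose by 1.01 ± 0.21 (adjusted p = 0.0165). Its promoter, printed in the same way as those above, held 1 match to the NRF1 motif.
Ndufaf5 promoter, chr2:140170396-140170695, plus strand: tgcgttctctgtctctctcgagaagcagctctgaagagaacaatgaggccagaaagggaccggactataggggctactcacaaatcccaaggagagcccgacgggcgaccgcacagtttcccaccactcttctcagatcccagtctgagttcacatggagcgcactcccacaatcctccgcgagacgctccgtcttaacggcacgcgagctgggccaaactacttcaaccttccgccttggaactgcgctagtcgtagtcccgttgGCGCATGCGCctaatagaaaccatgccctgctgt
The other 7 Ndufaf genes differed by -0.12 (Ndufaf3) to 0.45 at 9 months, of which Ndufaf8 was highest (adjusted p = 0.134).

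In ATP synthase the 2 called genes were lower on HFD at 3 months. Atp5g3, 1 of the genes for the membrane ring subunit c, had levels of 7.18 and 7.42 on HFD at 3 months, against 8.38 and 8.58 on ND, and of 7.75 and 7.35 on HFD at 9 months, against 8.15 and 8.16 on ND. Both HFD mice lay below both ND mice at each time. It fell by 1.18 ± 0.21 at 3 months (limma adjusted p = 0.0355), a call that ended without any 1 array of 3 months or any 1 ND array of 9 months and so held in 2 of 8 fits, and differed by -0.60 ± 0.21 at 9 months (adjusted p = 0.127). Its paralogue Atp5g2 differed by 0.00 ± 0.19 at 3 months and 0.25 ± 0.19 at 9 months through its brightest probe. Another Atp5g2 probe, also well above background on all 8 arrays, differed by -0.98 at 3 months and -0.08 at 9 months.

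Atp5h, for subunit d of the stalk, was called through the brighter of its 2 probes. That probe had 7.14 and 7.05 on HFD at 3 months, against 8.17 and 8.31 on ND, a fall of 1.15 ± 0.22 (adjusted p = 0.0423). The other probe, also well above background on all 8 arrays, differed by 0.07 at 3 months and 0.29 at 9 months. After quantile normalization, normexp correction and in the authors' deposited table, where the brightest probe was picked anew, the 3-month difference was positive, so the direction of this gene is not settled. Atp5o, for the OSCP subunit, fell by 0.70 ± 0.16 over both durations (adjusted p = 0.0241), a call that held in 2 of 8 fits that left out 1 array, those without HFD 9 months replicate 2 or ND 9 months replicate 1. Atp5a1 and Atp5b, for subunits of the catalytic part, differed by -0.01 ± 0.16 and -0.04 ± 0.38 at 9 months. At 3 months they differed by -0.06 ± 0.16 and -0.78 ± 0.38. The HFD mice differed for Atp5b at 3 months, with 7.66 and 8.79, against 8.96 and 9.05 on ND. Atp5e, for subunit epsilon, differed by 0.58 ± 0.22 at 9 months (adjusted p = 0.14), and Atp5d, for subunit delta, by 0.06 ± 0.17 at 3 months. Over both durations 3 members were called higher (Cox7a1, Cox8b and Ndufaf5) and 5 lower (Atp5g3, Atp5h, Atp5o, Cox5b and Cox4i2), against 22.1% of all features called (10.3% higher and 11.8% lower). The direction of Cox8b is in part set by the filter on dim probes. All 4 HFD mice lay above all 4 ND mice for 5 members and below them for 6 (11.5% and 14% of all features).

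Of the 36 complex I genes 0 were called in any comparison. At 9 months the largest positive difference among them was that of Ndufa1, a small subunit, at 0.74 ± 0.24 (adjusted p = 0.104), and the smallest adjusted p was that of Ndufc1 (0.66 ± 0.17, adjusted p = 0.0618). Ndufc1 had levels of 7.11 and 6.95 on HFD at 9 months, against 6.40 and 6.35 on ND. Of the core subunits, Ndufs1, which carries iron-sulfur clusters, differed by -0.16 ± 0.22 at 9 months and -0.22 ± 0.22 at 3 months, and Ndufv1, the NADH-binding subunit, by -0.04 ± 0.18 and -0.08 ± 0.18. Ndufb8, an accessory subunit, differed by 0.01 ± 0.17 at 9 months and -0.40 ± 0.17 at 3 months. The most negative difference at 3 months, that of Ndufb2 (-1.62 ± 0.71, adjusted p = 0.208), rested on mice that differed: it had 4.26 and 5.40 on HFD, against 6.37 and 6.54 on ND. Ndufv2 had 4.61 and 6.41 on HFD at 3 months, against 6.26 and 6.29 on ND, and 4.84 and 5.93 on HFD at 9 months, against 6.03 and 5.92 on ND. The 2 mice of a group differed by more than 1 for 6 of the 91 genes on HFD at 9 months, 2 on ND at 9 months, 5 on HFD at 3 months and 0 on ND at 3 months.

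Complex II, which is also an enzyme of the citric acid cycle, had 0 of 4 genes called. Its flavoprotein gene Sdha had 6.28 and 5.95 on HFD at 9 months, against 5.51 and 5.81 on ND, and 6.47 and 6.48 on HFD at 3 months, against 6.23 and 5.81 on ND. The difference was 0.46 ± 0.23 at 9 months, 0.45 ± 0.23 at 3 months and 0.46 ± 0.16 over both (limma adjusted p = 0.0741). Sdhc, a membrane anchor, differed by 0.34 ± 0.19 and 0.33 ± 0.19. Another Sdhc probe, also well above background on all 8 arrays, differed by -0.01 at 9 months and 0.36 at 3 months. The iron-sulfur subunit gene Sdhb differed by 0.34 ± 0.17 and -0.24 ± 0.17, and the anchor gene Sdhd by -0.15 ± 0.38 and -0.50 ± 0.38.

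Complex III had 0 of 9 genes called, and 8 of 9 had a lower mean on HFD at 3 months. Uqcrq had the most negative difference there (-0.64 ± 0.23, adjusted p = 0.148), with 8.37 and 8.43 on HFD against 8.97 and 9.11 on ND. At 9 months it differed by 0.00 ± 0.23, and Uqcr11, the highest of the complex there, by 0.44 ± 0.23 (adjusted p = 0.259). Another Uqcrq probe, also well above background on all 8 arrays, differed by -0.55 at 9 months and -1.61 at 3 months. The core proteins Uqcrc1 and Uqcrc2 differed by 0.16 ± 0.18 and 0.09 ± 0.19 at 9 months and by -0.15 ± 0.18 and -0.11 ± 0.19 at 3 months. The Rieske protein gene Uqcrfs1 differed by -0.17 ± 0.19 and 0.07 ± 0.19, and Cyc1, for cytochrome c1, by -0.24 ± 0.26 at each time. Cox7a2l, counted here as the supercomplex factor, differed by 0.67 ± 0.21 at 9 months (adjusted p = 0.0986) and 0.25 ± 0.21 at 3 months.

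Probes of 1 gene can test how far a value belongs to the gene. Of the members 22 had several probes well above background on all 8 arrays, 51 probes in all. Their differences between diets at 3 months spanned a median of 0.59 within a gene and differed in sign for 12 of 22 genes. At 9 months the span was 0.28, with 8 of 22 differing in sign. For 9 against 3 months on ND the span was 0.10, and 49 of the 51 probes were lower at 9 months.

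On ND, most respiratory chain genes were lower at 9 than at 3 months, while 0 of 91 passed the test on their own (1.04% of all features did, 0.441% higher and 0.595% lower). Of the 91 genes 87 had a lower mean at 9 months, with a median of -0.42 (all features -0.07), and 83 were lower with no overlap between the mice (37.1% of all features) against 2 higher (23.4%). At an unadjusted p under 0.05 limma had 35 of 91 genes, against 3198 of 20165 features. With array weights, which gave the ND 3-month arrays the largest weight, it called 12 members, all lower, and 1409 features in all. The medians of the complexes were close together, at -0.41 for I, -0.38 for II, -0.44 for III, -0.45 for IV, -0.44 for V and -0.43 for the assembly factors. The smallest adjusted p was that of Sdhb (-0.80 ± 0.17, adjusted p = 0.0998), with levels of 7.05 and 6.98 at 9 months, against 7.86 and 7.77 at 3 months. Ndufb8 had 6.72 and 6.59 at 9 months, against 7.28 and 7.41 at 3 months (-0.69 ± 0.17, adjusted p = 0.121), Atp5a1 7.22 and 7.26, against 7.68 and 7.70 (-0.45 ± 0.16, adjusted p = 0.256), and Cox5a 7.75 and 7.91, against 8.35 and 8.46 (-0.57 ± 0.19, adjusted p = 0.222). The 4 genes with a higher mean were Cox8b, Cox6b2, Cox4i2 and Ndufaf5. In bulk liver, fewer cells of a type and less RNA per cell cannot be told apart.

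**Figure D3:**
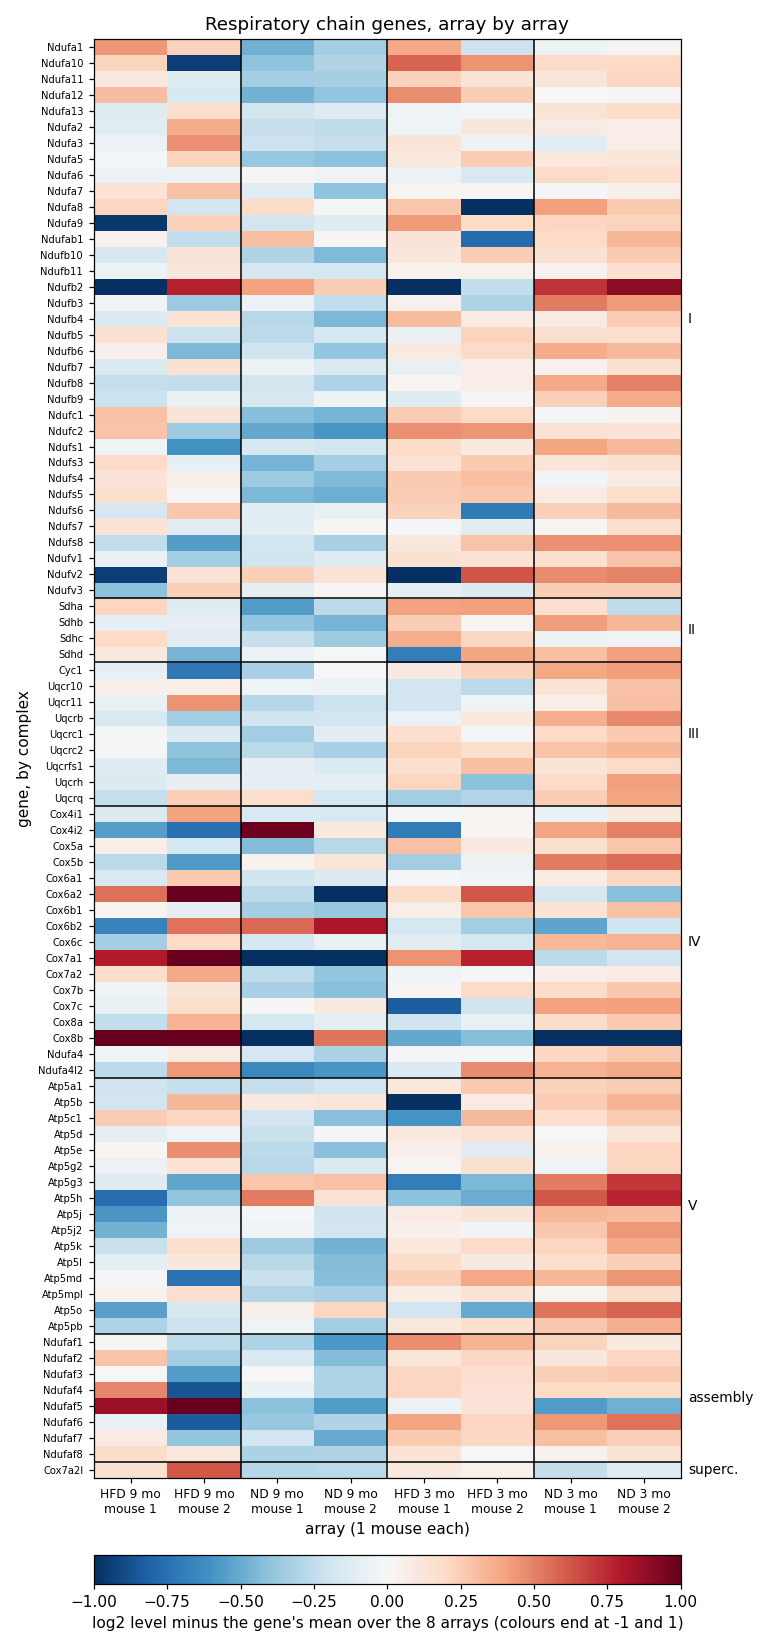
Level of the genes (rows, by complex, 1 gene not shown) on each array (columns, 1 mouse each), as the log2 difference from the gene's mean over the 8 arrays, in red where higher and blue where lower. The 2 ND columns of 9 months are blue for most rows and the 2 ND columns of 3 months red, with median deviations of -0.20 and -0.24 against 0.19 and 0.25.

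Bright probes in general were lower at 9 than at 3 months on ND. Of all features with a mean level of 6 to 7 and of 7 to 8, 75.8% were lower in each class, with medians of -0.22 and -0.24. The members of the same classes, 23 and 31 genes, had medians of -0.39 and -0.45, and each gene in them was lower. In the diet comparison of 3 months the order was the other way: all features of level 7 to 8 had a median of -0.29, and the 31 members -0.16. The part of brightness in the members' values was not tested.

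**Figure D4:**
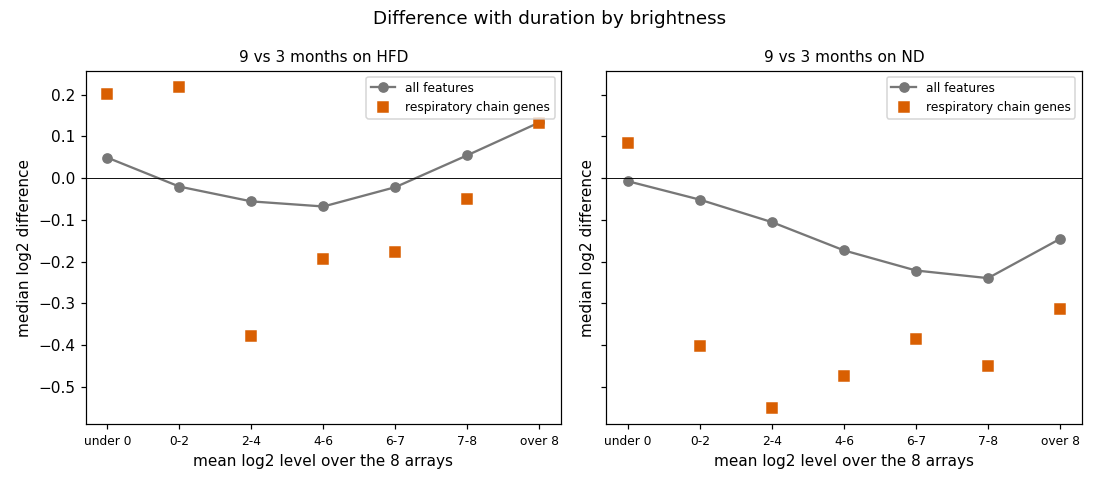
Median log2 difference between 9 and 3 months (vertical axis) in classes of mean level (horizontal axis) for all features (grey line) and the respiratory chain genes (orange squares; 5 to 7 genes in 4 of the classes), on HFD (left) and on ND (right). On ND the squares of the 3 classes with over 10 genes lie at -0.39 to -0.47, against -0.17 to -0.24 for all features.

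On HFD, 0 of 91 genes were called between 9 and 3 months (0.00992% of all features, 0.00496% higher and 0.00496% lower). A lower mean at 9 months was found for 57 of 91, with a median of -0.09 (all features -0.00), and 31 were lower and 9 higher with no overlap (23.3% and 21% of all features). The largest difference was that of Cox8b, at 3.05 ± 0.55 (adjusted p = 0.132). The fit without HFD 9 months replicate 1 called 8 genes, among them Cox8b and Ndufaf5 higher and Atp5md, Ndufa10, Ndufaf4, Ndufaf6 and Ndufc2 lower, with 1933 features called in all. That fit compares the array of lowest intensity with the 2 of 3 months.

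The diet difference at 9 months minus that at 3 months was positive for 84 of 91 genes, with a median of 0.33 (all features 0.06), but limma called 0 of 20165 features (1537 at an unadjusted p under 0.05, 5 of them members). The largest was that of Cox7a1, 1.56 (adjusted p = 0.523). The median differences shifted with the scaling of the arrays. For 9 against 3 months on ND they lay between -0.42 and -0.22 over 6 scalings, and relative to the median of all features between -0.37 and -0.19. Between diets they lay at 0.04 to 0.24 at 9 months and at -0.16 to 0.14 at 3 months. Relative to all features the 9-month diet median lay between -0.06 and 0.22, negative under normexp, so its direction against other features turned with the scaling. The interaction median lay between 0.12 and 0.33, with 60 of 91 genes positive in the authors' deposited table and 70 of 91 after quantile normalization.

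**Figure D5:**
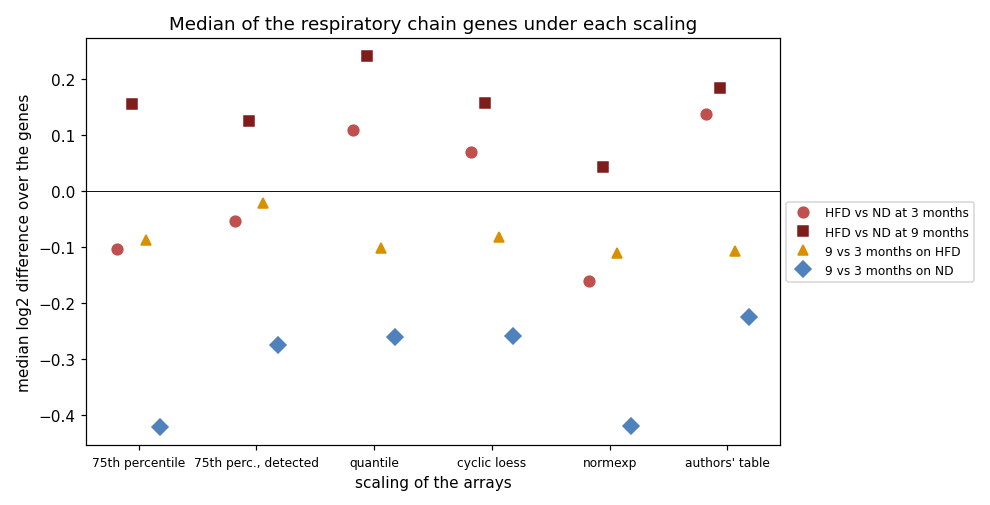
Median log2 difference over the respiratory chain genes (vertical axis) in 4 comparisons (symbols) under 6 scalings of the arrays (horizontal axis). The blue diamonds, 9 against 3 months on ND, lie between -0.42 and -0.22, and the light red circles, HFD against ND at 3 months, lie on both sides of 0.

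Promoter letters were not used in the choice by name. RefSeq's promoter table had a window for 74 of the 91 genes, with a median GC content of 58.8%, against 60% over 10303 tested genes. The NRF1 motif was found in 24.3% of the 74 windows, against 9.74% of the windows of tested genes and 4.78% of all 27025 windows. The YY1 motif was found in 13.5%, against 4.45% and 2.88%, AAGGTCA in 10.8%, against 3.54% and 4.66%, and CCGGAAG in 24.3%, against 17% and 9.12%. GGGCGG was found in 45.9%, against 60.4% and 35.9%, and TATAAA in 9.46%, against 8.6% and 14.2%.

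Other mitochondrial gene groups were described in the same way. Genes of mitochondrial ribosomal proteins were lower at 9 than at 3 months on ND for 71 of 77 (median -0.37) and on HFD for 63 of 77 (median -0.22). Assembly factors outside the Ndufaf series were lower for 30 of 35 on ND (median -0.39) and 27 of 35 on HFD (-0.34), and genes of the citric acid cycle and pyruvate dehydrogenase for 15 of 19 (-0.34) and 17 of 19 (-0.41). In each of these 6 comparisons limma called 0. Between diets at 9 months the assembly factor Uqcc2 of complex III rose by 0.96 ± 0.18 (adjusted p = 0.0296), Idh2, the mitochondrial NADP isocitrate dehydrogenase, by 0.96 ± 0.20 (adjusted p = 0.0417), and Gpx4, which reduces lipid peroxides, by 0.79 ± 0.17 (adjusted p = 0.0423). Clpp, a matrix protease, fell by 1.13 ± 0.20 at 9 months (adjusted p = 0.0279) and by 1.26 ± 0.20 at 3 months (adjusted p = 0.0292). Of the 77 mitoribosomal genes 4 were called higher (Mrpl45, Mrps16, Mrps21 and Mrps6) and 1 lower (Mrps28) at 9 months. The shares of all features there were 3.56% higher and 4.73% lower. Mrps6 was called higher at 3 months too (0.92 ± 0.18, adjusted p = 0.0421).

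Among 20 regulators of mitochondrial biogenesis 1 was called higher and 1 lower at 3 months and 0 at 9 months. Of all features 5.18% were called at 3 months and 8.28% at 9 months. Esrrg, an oestrogen-related receptor, had levels of 0.19 and 0.19 on HFD at 3 months, against -2.06 and -2.68 on ND (2.56 ± 0.35, adjusted p = 0.0207), and of -0.70 and -1.62 on HFD at 9 months, against -2.19 and -2.04 on ND (0.95 ± 0.35, adjusted p = 0.138). Ppargc1b, a coactivator of mitochondrial genes, was not well above background on either HFD array of 3 months. It was at least 12.9-fold lower there than on ND (limma adjusted p = 0.0329). The gene passed the filter on dim probes through the ND groups alone, so its direction is in part set by that filter. Over both durations Ppargc1a, Sirt1, Sirt3, Mterf2 and Esrrg were called higher and Ppargc1b lower, against 10.3% and 11.8% of all features. Ppargc1a, a relative of Ppargc1b, differed by 0.97 at 3 months (adjusted p = 0.0832) and 0.43 at 9 months, Pprc1 by -1.23 and 0.03, Nrf1 by -0.33 and 0.17, Gabpa by 0.21 and 0.08, Esrra by 0.19 and 0.08, and Tfam, which packages mitochondrial DNA, by 0.31 and -0.19. Between 9 and 3 months on ND Ppargc1b and these 6 genes differed by -0.95 (Ppargc1b) to 0.20 (Nrf1), and 0 were called. The uncoupling protein gene Ucp3 rose by 1.99 ± 0.41 at 3 months (adjusted p = 0.0483).

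Markers of other cells differed between the same groups. Between diets 8.28% of all features were called at 9 months and 5.18% at 3 months. Of 7 adipocyte and brown adipocyte markers 2 could be tested, and Adipoq, Lep, Plin1 and Ucp1 were not well above background on any array. The 2 were Cidea and Fabp4, also known from fatty liver, which rose on HFD at 9 months by 6.32 ± 1.27 (limma adjusted p = 0.0369) and 3.24 ± 0.46 (adjusted p = 0.0151). Their summed linear level was 48.6 to 89.3 on HFD at 9 months, against 1.38 to 4.08 on ND, and 9.33 to 9.37 on HFD at 3 months, against 1.92 to 2.36 on ND. Of 8 markers of skeletal and heart muscle 1 could be tested, and 6 were not well above background on any array (Myh1, Myh4, Acta1, Ckm, Mb and Actn3). The 1 tested, Myh6, was not well above background on either HFD array of 9 months. It was at least 4.29-fold lower there than on ND (limma adjusted p = 0.0351). Myh6 passed the filter on dim probes through the ND groups alone, so its direction is in part set by that filter. Stellate cell and fibroblast markers had 2 of 7 called higher on HFD at each time, namely Col1a1 (3.34 ± 0.38 at 9 months, adjusted p = 0.0101) and Col3a1. Lipid-associated macrophage markers had 2 of 5 called higher at 9 months, with Trem2 at 4.41 ± 0.34 (adjusted p = 0.0056), and 1 at 3 months. Of 4 T and NK cell markers 1 was called lower at each time, Cd4 (-3.00 ± 0.35 at 9 months, adjusted p = 0.0107). The others had no common direction. Cd3e differed by -1.17 at 9 months and -2.17 at 3 months, Cd2 by 0.93 and 1.49, and Nkg7 by -0.0044 and 0.24. The hepatocyte list had a median of -0.77 at 9 months (1 of 10 called, lower) and -0.61 at 3 months (0 called). Between 9 and 3 months on ND, erythroid markers had summed levels of 62.1 to 84.9 at 9 months, against 149.6 to 170.8 at 3 months (median difference -1.28, 2 tested). Macrophage and Kupffer cell markers had 100.1 to 313.5 at 9 months, against 46.2 to 51.7 at 3 months (median difference 2.43, 9 tested). Marco weighs most in the sums of 9 months, with levels of 7.49 and 5.60 there, against 1.42 and 0.23 at 3 months. The hepatocyte list had 4405 to 4693 at 9 months, against 4719 to 5437 at 3 months (median -0.17). The part of these cells in the members' values was not tested.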

How the data were processed

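Liver RNA of 8 mice was measured on 1-colour Agilent arrays. The authors' deposited files came from Feature Extraction 10.7.1.1 by Agilent, per the submitters' processing notes. The deposited processed signal, per the file headers, is a background-corrected and detrended intensity with no scaling across arrays, while median signals are raw intensity values. The deposited flags are other values, 0 or 1 per spot. The authors' deposited value table holds log2 values that keep the order of the median signals within every array (rho = 1 by Spearman) and have a median of 7.14 per column. The array annotation is of build mm9, and the RefSeq tables (GRCm38.p6) gave names and promoter windows only.

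Control spots (3671) and outlier-flagged spots were left out. The log2 processed signal was centred on the array's 75th percentile (pseudocount 0), and replicate spots were averaged. A probe was kept if 1 or more groups had it well above background in both mice (25801 of 55603), and the brightest kept probe stood for a gene. limma 3.58.1 in R 4.3.3 was fitted to 4 group means with lmFit and eBayes (4 residual and 2.33 prior degrees of freedom), and to diet with duration as covariate for both durations. Calls are Benjamini-Hochberg adjusted over all features at 0.05. A bound sets the brighter group against the dimmest detected signal of the other group. The arrays hold different mice per the labels, and their number limits the precision. The method was tested on simulated data. Figures used Python 3.11.15, matplotlib 3.10.9, numpy 2.4.6 and pandas 2.3.3.

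The members and the lists were chosen with earlier results of these data known. Named are called members (at most 8 per direction), the largest rise and fall of each complex, a panel of 25 subunits, tissue-specific forms and paralogues, members whose probes disagree by over 0.5 each way (0 did), and regulators with called genes of related lists. A few genes that this rule names are not reported here. Same-numbered mice of different groups deviated with r = -0.02 to 0.14. The labels do not state that the numbers pair mice, and these values cannot exclude it.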

Additional observations from a re-analysis of the deposited data

How the results depend on the processing

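With 2 mice per group and diet on separate slides, calls of single genes rest on few arrays, and levels near background (Cox8b, Cox6a2) have only bounds in some groups. Cyclic loess and the second brightest probe were chosen after seeing the data.

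Counts of called genes at 3 months, 2 in the report, were 0 after quantile normalization, cyclic loess, with no filter on dim probes and with the replicate block, 1 with the percentile taken over detected probes, the authors' table and the mean of kept probes, 4 from the 4 arrays compared and 9 with array weights. At 9 months, 3 in the report, they were 0 with no filter and from the 4 arrays compared, 6 with trend and robust moderation and 10 with the authors' table. Over both durations, 8 in the report (3 higher, 5 lower), they were 5 with no filter (3 and 2) and 14 after cyclic loess (10 and 4). Quantile normalization gave 20, of which 18 were higher and 2 lower, with 4515 features called in all. The authors' table gave 28, with 24 higher and 4 lower, and 4792 features. The report had 4453 features called. Most called members were lower in the report and higher under quantile normalization and in the authors' table, where other members were called. Of the members called in the report over both durations, only Atp5h changed sign between settings (-1.13 to 0.50). On ND between 9 and 3 months array weights gave 12 in place of 0, with 1409 features called in place of 209. Counts over all features moved in the other comparisons too. At 3 months array weights called 3972 features and no filter 68, against 1045 in the report. At 9 months the authors' table called 2270 and no filter 274, against 1670 in the report.

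Medians at 3 months were 0.11 (quantile), 0.0695 (cyclic loess), 0.14 (authors' table), -0.16 (normexp) and -0.0532 (percentile over detected probes). At 9 months they were 0.24 (quantile), 0.0433 (normexp), 0.13 (detected) and 0.18 (no filter, where they lay at -0.11 relative to all features). On ND between 9 and 3 months they were -0.26 (quantile and cyclic loess), -0.27 (detected) and -0.22 (authors' table), and on HFD -0.0214 (detected) and -0.0369 (mean of kept probes). For the interaction they were 0.16, 0.19, 0.25 and 0.12 after quantile normalization, cyclic loess, detected probes and the authors' table. Over both durations they were 0.16, 0.12, 0.19, -0.0574 and -0.0484 after quantile normalization, cyclic loess, the authors' table, normexp and array weights. The percentile over detected probes moved the median of all features by 0.15 on ND, and members lay 0.35 below it either way; no filter moved it by 0.26 at 3 months and 0.28 at 9 months.

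Atp5h at 3 months was 0.42 (quantile), 0.12 (normexp), 0.55 (authors' table) and 0.071 (second brightest probe), and over both durations 0.41, 0.20, 0.50 and 0.18, since the other probe was then used.

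With 1 array left out, counts ran from 0 to 3 at 3 months, 2 to 6 at 9 months, 0 to 8 between 9 and 3 months on HFD, 0 to 0 on ND and for the interaction, and 4 to 13 over both durations. Medians ran from -0.14 to -0.0665 at 3 months, 0.15 to 0.21 at 9 months, -0.14 to -0.0207 on HFD, -0.46 to -0.38 on ND, 0.27 to 0.40 for the interaction and -0.0236 to 0.0698 over both durations. The replicate block, for numbers not shown to pair mice, changed no other count of calls by over 1.5 times. The cause of these shifts was not tested, save for Atp5h.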
